A study of Arabidopsis thaliana with 18 samples.

Results

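Seedlings of the atm1-1 mutant were compared with Col-0 wild-type seedlings after growth without added sugar. The comparison used the 3 atm1-1 mock and the 3 Col-0 mock libraries, 6 of the 18 libraries of the series, chosen by their genotype and treatment labels, and was described across all genes with enough reads to test. Both groups were whole seedlings at day 5 on agar plates of Murashige and Skoog medium with 0 mM sugar, and were labelled as 3 biological replicates each. atm1-1 is a T-DNA insertion allele of ATM1 in the Col-0 background, and it was 1 allele, with neither another allele nor a complemented line among these libraries. The other 12 libraries were the same genotypes on glucose or sucrose, each at 15 mM, and entered the same fit, where they share in the filter, the normalization and the estimate of the spread. Their own genotype comparisons were used to ask whether a difference seen without sugar was also present in separate libraries. RNA was read as QuantSeq 3′ tags, in which each read comes from the 3′ end of a polyadenylated transcript. The Col-0 mock libraries held 12414000 to 14047220 reads on genes and the atm1-1 mock libraries 13113811 to 17433441. Since the RNA came from whole seedlings, fewer cells of a type and less RNA per cell cannot be told apart.

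ATM1 encodes a class VIII myosin, a plant-specific motor protein that moves on actin filaments and is found at the plasma membrane and at plasmodesmata, the channels between plant cells. Many of the genes that differed belong to the glucosinolate pathway, which makes the sulfur-rich defence compounds of the cabbage family. Aliphatic glucosinolates are built from methionine, whose side chain is lengthened in a repeated cycle, converted to an aldoxime by cytochromes P450, joined to sulfur and glucose, and finally sulfated. Indole glucosinolates are built from tryptophan through related enzymes.

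Of 32832 genes listed, 19679 were tested with edgeR's quasi-likelihood test, and 31 were called at q ≤ 0.1 (0.158% of the genes tested), where q is the Benjamini-Hochberg adjusted p-value and 0.1 is the study's threshold. In atm1-1, 7 genes were higher (0.0356%) and 24 were lower (0.122%). The groups of 3 libraries did not overlap for any of the 31, while of all genes tested 6.53% were lower and 6.29% higher without overlap. Of the 24 lower genes 14 were in one of the gene lists described here, 8 of them in the list of aliphatic glucosinolate genes, while 1 of the 7 higher genes was in a list. The lists were chosen with earlier results of these data known, so these counts describe the lists and test nothing. At an unadjusted p under 0.05 there were 1084 genes (5.51%), 441 higher and 643 lower, and 16 genes passed q ≤ 0.05. The log2 fold change of all genes tested had a median of 0.00107 and quartiles of −0.19 and 0.17. Among the 9348 genes with a mean of at least 10 CPM (counts scaled to library size with TMM normalization factors), 98.8% lay within 1.5-fold.

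**Figure D1:**
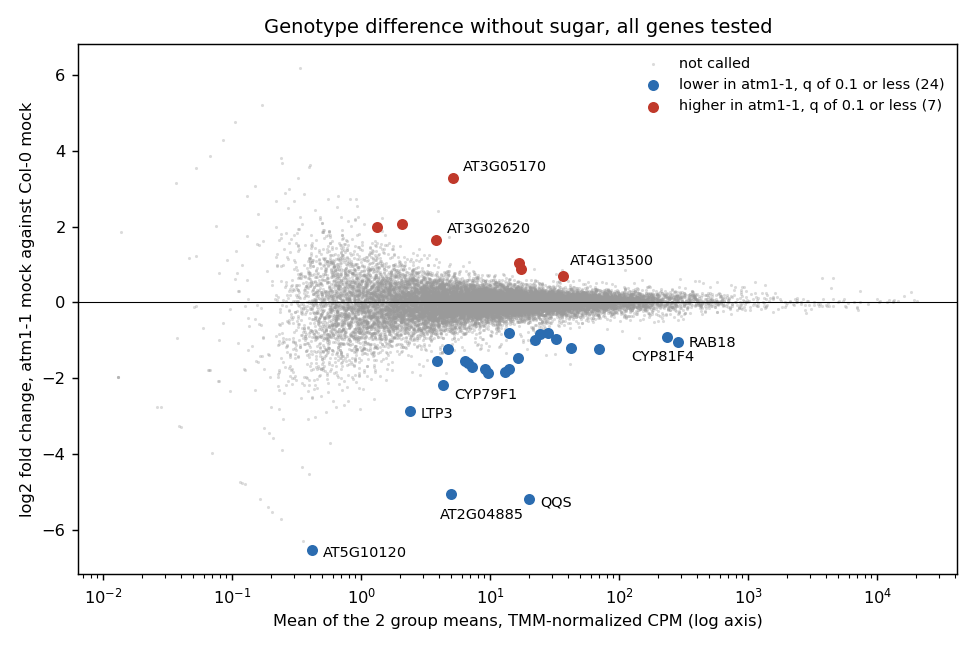
Log2 fold change of atm1-1 mock against Col-0 mock (y axis) against the mean TMM-normalized CPM of both groups (x axis, log scale) for the genes tested. Grey points are genes not called, and coloured points are the 24 lower and 7 higher genes at q ≤ 0.1; the cloud widens below 1 CPM, and most coloured points lie below 0.

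The precision depended on the number of reads. The median standard error (SE) of the log2 fold change was 0.82 for genes under 1 CPM, 0.35 from 1 to 10 CPM, 0.19 from 10 to 100 CPM and 0.16 at 100 CPM and over. Of the 843 genes with a log2 fold change beyond 1 in either direction, 551 were under 1 CPM, and 1 gene of that class was called. The count of 31 depended on the settings, and was 107 with no filter on low counts, 96 with only the libraries compared and 84 with DESeq2. It also rested on every library, as it was 20, 20 and 16 without Col-0 mock replicate 1, 2 or 3, and 15, 19 and 13 without atm1-1 mock replicate 1, 2 or 3. In all 6 of these fits 10 genes kept their call, and these were QQS, AT2G04885, AT3G05170, DJ1F, RAB18, BCAT4, AT2G40660, CYP83A1, CYP79F1 and CYP81F4.

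ATM1 (AT3G19960) itself did not separate the groups. Its level was 43.9, 34.8 and 35.9 CPM in the Col-0 libraries and 35.9, 30.2 and 28.8 CPM in atm1-1. The groups overlapped (log2 fold change −0.27, SE 0.19, edgeR q = 1). By RT-PCR the paper detected ATM1 RNA upstream of the insertion in atm1-1, but no full-length transcript. The tags come from the 3′ end of a transcript and the counts hold no read positions. Which transcript gave the reads in atm1-1 was not tested, so the level does not check the genotype label. The 5 tested genes on each side of ATM1 had log2 fold changes from −0.57 to 0.25, and the lowest edgeR q among these 10 was 0.987. Of the 13 myosin genes tested none was called, and the median was 0.14. ATM2, another class VIII myosin, had (log2 fold change 0.19, SE 0.17, edgeR q = 1).

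The gene with the lowest q was QQS (AT3G30720), a gene found only in Arabidopsis thaliana and named qua-quine starch for its part in starch content. QQS was at 38.0, 44.9 and 34.7 CPM in the Col-0 libraries and at 2.13, 0.236 and 0.572 CPM in atm1-1. All 3 mutant libraries were far below all wild-type libraries. The level was 36.4-fold lower (log2 fold change −5.19, SE 0.48, edgeR q = 9.23e-07). Of the 47 counts in the mutant 37 were in atm1-1 replicate 1, and without that library the log2 fold change was −6.58. Of the 23 starch metabolism genes tested none was called, and their median log2 fold change was −0.03.

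The long non-coding RNA AT2G04885 was almost without reads in the mutant. It was at 5.43, 10.7 and 12.8 CPM in Col-0, and at 0.404, 0 and 0.409 CPM in atm1-1, or 362 against 12 counts over the 3 libraries of each group. One mutant library held no read and the others few. The fitted difference was −5.06 on the log2 scale (SE 0.62, edgeR q = 0.000128).

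AT5G10120, annotated as an ETHYLENE INSENSITIVE 3 family protein, was the only called gene with no read in any atm1-1 mock library. Its Col-0 libraries were at 1.27, 0.392 and 0.839 CPM, together 32 counts. Against a floor of 3 counts over the mutant group, and with the 32 Col-0 counts taken as exact, the level was 11.8-fold lower (edgeR q = 0.0335). The error of the Col-0 counts is not in this value, so it is no lower limit of the difference. The call was lost without Col-0 replicate 1 (edgeR q = 0.146) and without atm1-1 replicate 1 (0.225), 2 (0.133) or 3 (0.165). On glucose the gene had 46 counts in Col-0 and 47 in atm1-1, and on sucrose 139 and 166, with overlapping groups on both.

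Other strong falls were in genes of less known function. DJ1F (AT3G54600), of the DJ-1 family of glutamine amidotransferase-like proteins, was at 11.8, 10.1 and 11.2 CPM in Col-0 and 3.11, 4.57 and 2.45 CPM in atm1-1 (log2 fold change −1.70, SE 0.24, edgeR q = 0.000992). AT2G40660, annotated as a nucleic acid-binding protein with an OB fold, was at 12.9, 17.5 and 14.6 CPM in Col-0 and 5.53, 3.70 and 3.02 CPM in atm1-1 (log2 fold change −1.86, SE 0.29, edgeR q = 0.00225). For both genes the highest mutant library was below the lowest wild-type library by a wide margin.

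**Figure D2:**
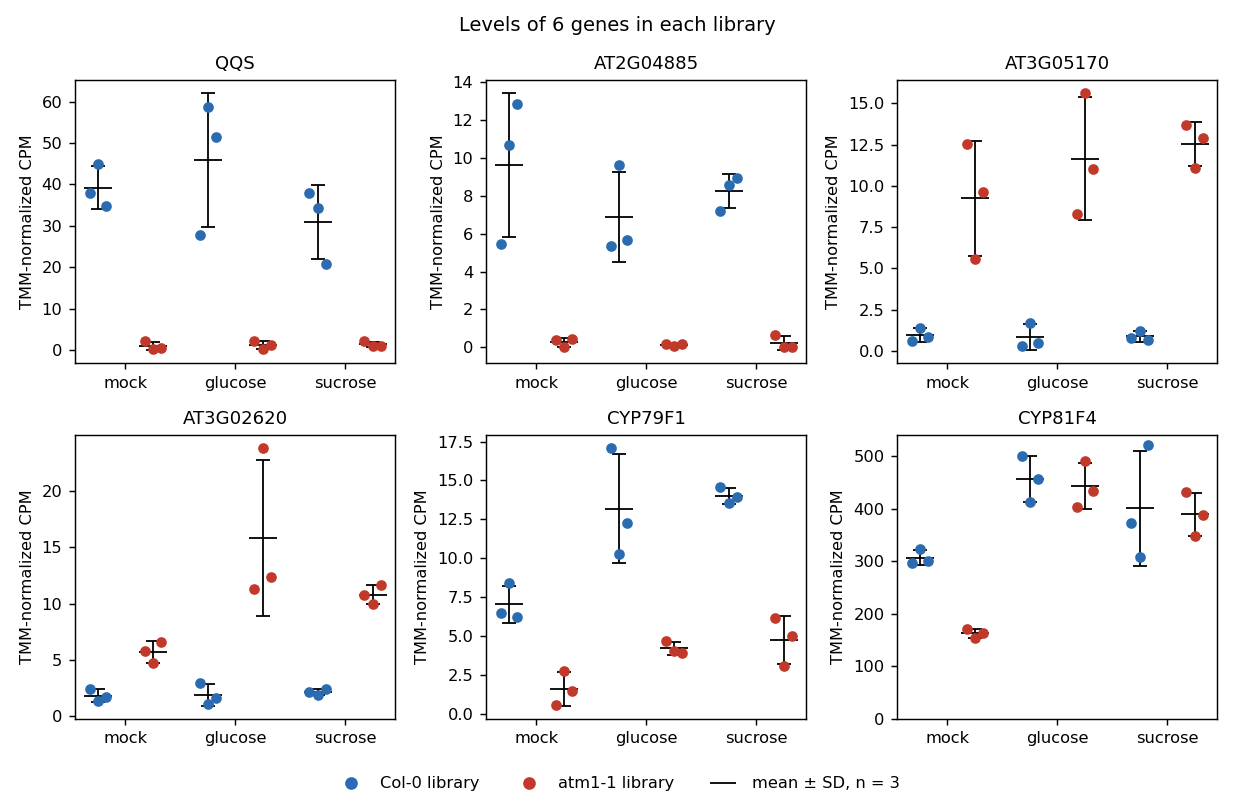
TMM-normalized CPM (y axis, from 0) of QQS, AT2G04885, AT3G05170, AT3G02620, CYP79F1 and CYP81F4 in each library of the 3 media, Col-0 in blue and atm1-1 in red, with the mean ± SD of 3 libraries. The genotypes are apart in all 3 media for the first 5 genes, and in mock alone for CYP81F4, where Col-0 was at 297 to 323 CPM and atm1-1 at 153 to 171.

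The aliphatic glucosinolate genes were the largest group of falls. Of 27 tested list members 8 fell and none rose, while 0.122% of all genes tested fell. Of the 27, 25 had a negative log2 fold change. In atm1-1 21 (77.8%) were lower with no overlap between the groups, against 6.53% of all genes tested. The median log2 fold change was −0.97, against 0.00107 for all genes. The summed level of the list was 589 to 629 CPM in Col-0 and 402 to 461 CPM in atm1-1. AOP3 had no read in the mock libraries and AOP2 was not analysed here.

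In the cycle that lengthens the methionine side chain, 4 of 9 genes fell and the median log2 fold change was −1.46. BCAT4 (AT3G19710), the aminotransferase that starts the cycle, was at 21.9, 20.6 and 18.6 CPM in Col-0 and 5.88, 8.58 and 2.70 CPM in atm1-1. The mutant level was 3.55-fold lower in the fit (log2 fold change −1.83, SE 0.28, edgeR q = 0.00225), and every mutant library was under every Col-0 library. BCAT4 lies on chromosome 3 with 20 tested genes between it and ATM1. MAM1 (AT5G23010), the synthase that adds the carbon of each round, was at 14.29, 14.04 and 13.77 CPM in Col-0 and 3.862, 5.197 and 3.433 CPM in atm1-1 (log2 fold change −1.75, SE 0.34, edgeR q = 0.0346).

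IPMI2 (AT2G43100) and IPMI1 (AT3G58990) are small subunits of the isomerase that acts next. IPMI2 was at 27.9, 23.6 and 20.8 CPM in Col-0 and 6.63, 13.4 and 6.38 CPM in atm1-1 (log2 fold change −1.46, SE 0.25, edgeR q = 0.00859). IPMI1 was at 8.48, 4.55 and 4.36 CPM in Col-0 and 2.25, 1.97 and 1.72 CPM in atm1-1 (−1.54, SE 0.33, edgeR q = 0.08). The large subunit IIL1, which these small subunits share with leucine synthesis, was at 134, 125 and 138 CPM in Col-0 and 135, 136 and 130.1 CPM in atm1-1, with overlapping groups and (log2 fold change 0.02, SE 0.14, −0.01 with library size scaling). BCAT3, an aminotransferase of the later part of the cycle, was at 82.4 to 88.5 CPM in Col-0 and 74.0 to 77.7 CPM in atm1-1 (−0.18, SE 0.17, edgeR q = 1). The dehydrogenase IMD1 (−0.97, SE 0.33, edgeR q = 0.627), the plastid keto acid transporter BAT5 (−1.11, SE 0.41, edgeR q = 0.74) and the synthase IMS2, also called MAM3 (−2.36, SE 0.74, edgeR q = 0.513), were lower with no overlap between the groups but were not called.

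Of the 10 genes that build the core structure 4 fell, all 10 were lower in atm1-1 with no overlap, and the median was −1.10. CYP79F1 (AT1G16410), which turns the elongated methionine into an aldoxime, was at 6.47, 8.39 and 6.21 CPM in Col-0 and 0.576, 2.76 and 1.47 CPM in atm1-1. It was 4.51-fold lower (log2 fold change −2.17, SE 0.36, edgeR q = 0.00488), and without atm1-1 replicate 2 the log2 fold change was −2.83. Its tandem copy CYP79F2 was at 4.55 to 6.70 CPM in Col-0 and 1.23 to 2.99 CPM in atm1-1 (−1.34, SE 0.32, edgeR q = 0.136). The copies are near-identical, as are MAM1 and IMS2 in part, so that how the counting divided their reads is uncertain.

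CYP83A1 (AT4G13770), which oxidizes the aldoximes, was at 23.96, 21.2 and 19.7 CPM in Col-0 and 4.38, 11.0 and 3.76 CPM in atm1-1 (log2 fold change −1.77, SE 0.29, edgeR q = 0.00486, and −2.40 without atm1-1 replicate 2). GSTU20 (AT1G78370), a glutathione transferase of the sulfur step, was at 54.8, 58.8 and 64.5 CPM in Col-0 and 25.5, 28.9 and 22.2 CPM in atm1-1 (−1.22, SE 0.21, edgeR q = 0.00674). AT2G31790, annotated as a UDP-glycosyltransferase, was at 33.1, 30.9 and 24.7 CPM in Col-0 and 16.7, 15.3 and 12.5 CPM in atm1-1 (−0.99, SE 0.18, edgeR q = 0.0115). In these 3 genes every mutant library was below every wild-type library, and atm1-1 replicate 2 was the mutant library nearest to Col-0 for CYP83A1 and GSTU20. Among the core genes that were not called, the sulfotransferases SOT17 and SOT18, which add the final sulfate, had log2 fold changes of −0.73 (SE 0.26, edgeR q = 0.675) and −0.49 (SE 0.17, edgeR q = 0.628). The transferase GSTF11 had −1.66 (SE 0.68), the peptidase GGP1 −0.43 (SE 0.20) and the lyase SUR1 −0.28 (SE 0.20), with edgeR q of 0.846, 0.897 and 1.

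The side chain enzymes and the regulators had no call. The flavin monooxygenase FMO GS-OX1 had the lowest log2 fold change of the list, −2.89 (SE 0.72, edgeR q = 0.197), from 0.863 to 1.09 CPM in Col-0 and 0.0576 to 0.236 CPM in atm1-1, and FMO GS-OX4 had −0.38 (SE 0.17, edgeR q = 0.87). AOP1 was the member with the highest value (0.39, SE 0.36, edgeR q = 1). MYB28, the transcription factor named as the main activator of the aliphatic genes, was at 5.51, 9.57 and 6.71 CPM in Col-0 and 7.15, 7.17 and 5.89 CPM in atm1-1, with overlapping groups (−0.11, SE 0.23, edgeR q = 1, and 0.14 without Col-0 replicate 2). Its relative MYB29 was at 0.504 to 0.819 CPM in Col-0 and 0.231 to 0.490 CPM in atm1-1 (−0.93, SE 0.73, edgeR q = 1).

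**Figure D3:**
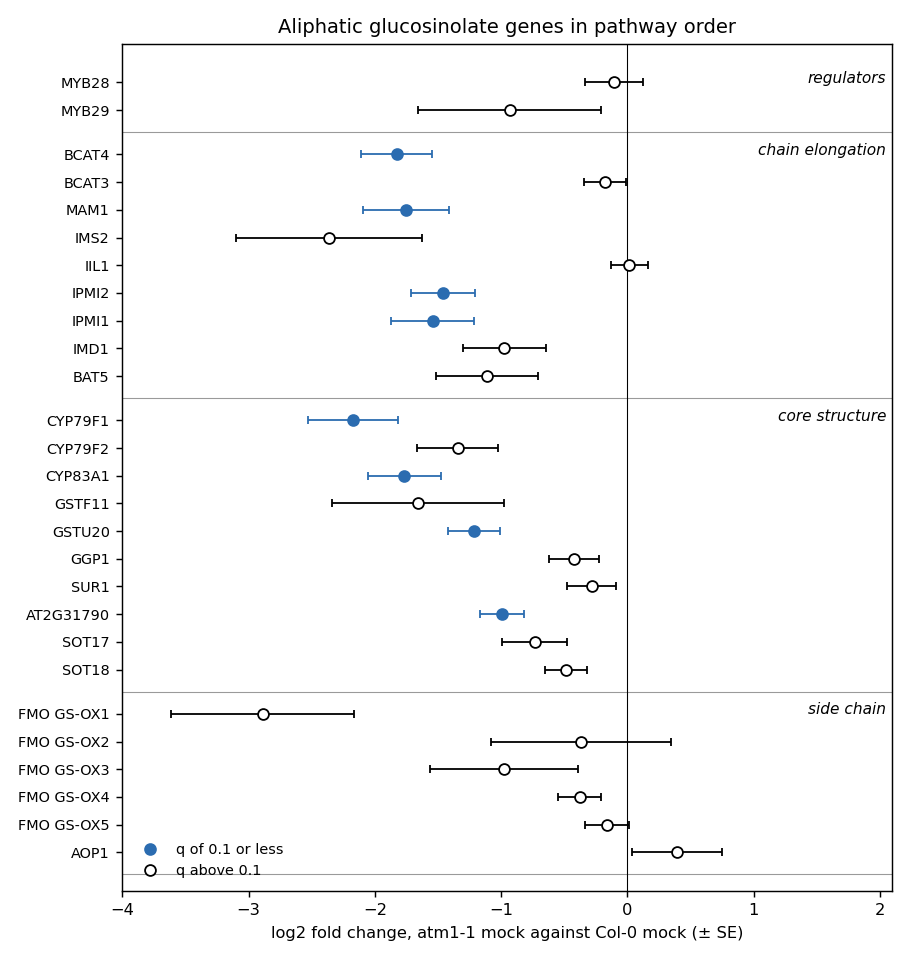
Log2 fold change ± SE of atm1-1 mock against Col-0 mock (x axis) for the 27 aliphatic glucosinolate genes tested, grouped by step of the pathway (y axis). Filled blue points are the 8 genes at q ≤ 0.1, all between −2.17 and −0.99, and of the open points IIL1 and AOP1 lie above 0.

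Of the 8 aliphatic genes called, BCAT4, CYP79F1 and CYP83A1 were called in each fit that left out 1 library. GSTU20 lost its call without atm1-1 replicate 3 (edgeR q = 0.114). IPMI2 lost it without atm1-1 replicate 1 (0.145) or 3 (0.161), and AT2G31790 without Col-0 replicate 1 (0.107) or atm1-1 replicate 3 (0.165). IPMI1 was called only without Col-0 replicate 2 or 3, and its q in the other 4 fits was 0.248 to 0.629. MAM1 was called only without atm1-1 replicate 2 (0.105 to 0.265 in the other 5), and limma on the scaled table did not call it (0.174 at most).

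On the indole side 1 of 16 genes fell, against 0.122% of all genes tested. CYP81F4 (AT4G37410), which modifies the indole ring of finished indole glucosinolates, was at 297, 323 and 300.3 CPM in Col-0 and 171, 153 and 163 CPM in atm1-1. The libraries of each group were close together and the groups far apart (log2 fold change −0.92, SE 0.16, edgeR q = 0.00875). The median of the indole list was −0.31 and 12 of 16 members were negative. Of the 16, 6 were lower with no overlap, against 6.53% of all genes tested. Members with many reads that were not called included the sulfotransferase SOT16 (−0.30, SE 0.15, edgeR q = 0.908) and the methyltransferase IGMT1 (−0.32, SE 0.15, edgeR q = 0.907). CYP79B3, which makes the indole aldoxime, had −0.68 (SE 0.25, edgeR q = 0.727). None of the 10 genes of glucosinolate transport and breakdown was called, and their median was −0.10. The myrosinase TGG1, which cleaves glucosinolates, was at 327 to 376 CPM in Col-0 and 279 to 386 CPM in atm1-1.

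Sulfate is fixed into an activated form before it enters cysteine or glucosinolates. Of 18 genes of sulfate uptake, assimilation and sulfur deficiency 1 fell, against 0.122% of all genes tested. AKN2 (AT4G39940), an APS kinase that makes the sulfate donor of the sulfotransferases, was at 19.3, 17.3 and 16.8 CPM in Col-0 and 10.7, 8.43 and 11.1 CPM in atm1-1, with no overlap (log2 fold change −0.82, SE 0.18, edgeR q = 0.08). In the list 16 of 18 genes had negative values and the median was −0.44. Of the 18, 10 (55.6%) were lower with no overlap, against 6.53% of all genes tested. The sulfur-deficiency genes LSU1 (−0.89, SE 0.28, edgeR q = 0.526) and LSU2 (−1.22, SE 0.44, edgeR q = 0.727), the reductase APR1 (−0.57, SE 0.22, edgeR q = 0.785) and the sulfurylase APS1 (−0.24, SE 0.14, edgeR q = 0.973) were among these 10. The AKN2 call was lost without any 1 library (edgeR q of 0.172 to 0.396 over the 6 fits) and with library size scaling (0.111).

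The thalianol and marneral clusters make root triterpenes from neighbouring genes. Of their 7 genes tested 2 fell, against 0.122% of all genes tested. CYP705A5 (AT5G47990), a P450 that acts on a thalianol product, was at 45.0, 36.5 and 46.2 CPM in Col-0 and 23.4, 20.3 and 21.9 CPM in atm1-1 (log2 fold change −0.96, SE 0.19, edgeR q = 0.0402). CYP708A2 (AT5G48000), the thalianol hydroxylase, was at 6.03, 9.26 and 4.53 CPM in Col-0 and 2.71, 3.07 and 2.70 CPM in atm1-1 (−1.23, SE 0.27, edgeR q = 0.0923). THAS1, the thalianol synthase, was just outside the threshold at 27.8, 26.3 and 23.8 against 12.7, 14.1 and 12.2 CPM (−1.001, SE 0.23, edgeR q = 0.103). All 7 genes tested had negative values, with a median of −0.96, and 3 were lower with no overlap, against 6.53% of all genes tested. On glucose none of the 7 was negative (median 0.20) and on sucrose 1 was (median 0.17).

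Of the fits without 1 library, CYP705A5 was called only in the one without Col-0 replicate 2 (edgeR q of 0.145 to 0.270 in the other 5). CYP708A2 was called only without Col-0 replicate 3 (0.195 to 0.566 in the others), and 6 of 9 other settings did not call it (0.127 at most). Markers of root tissue were set beside these root-expressed genes. Of 10 endodermis markers none was called (median 0.05), and their summed level was 341 to 445 CPM in Col-0 and 367 to 443 CPM in atm1-1. Of 7 root hair markers none was called (median −0.24), with 28.1 to 33.3 CPM in Col-0 and 20.9 to 28.5 CPM in atm1-1.

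Other falls included a dehydrin gene and 2 LEA genes, of which the LEA genes are in none of the lists. RAB18 (AT5G66400), a dehydrin induced by abscisic acid, was at 329, 407 and 411 CPM in Col-0 and 152, 203 and 202 CPM in atm1-1. Every mutant library was below every wild-type library, and the level was 2.06-fold lower (log2 fold change −1.04, SE 0.16, edgeR q = 0.00216). The late embryogenesis abundant (LEA) protein gene LEA7 (AT1G52690) was at 84.8, 97.5 and 113 CPM in Col-0 and 32.7, 36.6 and 56.2 CPM in atm1-1 (−1.23, SE 0.28, edgeR q = 0.0932). A further LEA gene, AT2G42560, was at 9.53, 8.24 and 10.7 CPM in Col-0 and 3.06, 2.76 and 3.92 CPM in atm1-1 (−1.55, SE 0.35, edgeR q = 0.0923). LEA proteins accumulate in drying seeds and under water loss.

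In the list of 12 abiotic stress genes RAB18 was the 1 called, while 0.122% of all genes tested fell. Of the 12, 9 were negative and the median was −0.30. With no overlap 5 were lower and 1 was higher, against 6.53% and 6.29% of all genes tested. The summed level of the 12 genes, RAB18 included, was 794 to 952 CPM in Col-0 and 539 to 715 CPM in atm1-1, without overlap. Just outside the threshold were the cold-regulated COR15A, at 13.4, 20.08 and 14.8 CPM in Col-0 and 6.51, 7.09 and 7.77 CPM in atm1-1 (log2 fold change −1.18, SE 0.27, edgeR q = 0.103), and P5CS1, an enzyme of proline synthesis, at 28.6, 57.9 and 46.1 CPM in Col-0 and 23.2, 22.0 and 25.9 CPM in atm1-1 (−0.90, SE 0.21, edgeR q = 0.103). HSP90.1 had a log2 fold change of 0.41 and LTI78 of −0.32, and neither was called (edgeR q = 0.982 and 0.973). LEA7 was called only without atm1-1 replicate 3 (0.159 to 0.575 in the other 5 fits, edgeR q), and neither DESeq2 nor the filter of at least 10 counts in every library called it. AT2G42560 was not called without any 1 library (0.173 to 0.484) and lost its call in 5 of 9 other settings (0.174 at most).

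Genes of seed storage and of oil mobilization were set beside these genes as 1 list. Of its 16 genes, 11 were tested, none was called, 9 were negative and the median was −0.93. Their summed level was 281 to 344 CPM in Col-0 and 181 to 214 CPM in atm1-1, without overlap. CRU2, SESA1 and SESA2, which encode storage proteins, had no read in any mock library. Most of the sum in Col-0 was ICL, isocitrate lyase of the glyoxylate cycle. ICL was at 176, 171 and 217 CPM in Col-0 and 77.5, 115 and 104 CPM in atm1-1 (log2 fold change −0.93, SE 0.25, edgeR q = 0.272). Malate synthase, MLS, had −0.68 (SE 0.31, edgeR q = 0.87). The part of seed reserves or of seedling age in the falls of RAB18 and the LEA genes was not tested.

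The remaining falls were spread over other functions. LTP3 (AT5G59320), a lipid transfer protein, was at 1.19, 8.24 and 3.11 CPM in Col-0 and 0.576, 0.394 and 0.736 CPM in atm1-1, with Col-0 replicate 2 far above the rest (log2 fold change −2.86, SE 0.64, edgeR q = 0.0923). Without that library the log2 fold change was −1.90 and the edgeR q 0.657, and LTP3 was called only without Col-0 replicate 1 (0.208 to 0.657 in the other 5 fits). The related LTP2 was at 83.5 to 134 CPM in Col-0 and 84.2 to 95.8 CPM in atm1-1. UGT72E2 (AT5G66690), which glucosylates monolignols, was at 38.3, 29.0 and 39.5 CPM in Col-0 and 17.3, 19.2 and 24.9 CPM in atm1-1 (−0.80, SE 0.17, edgeR q = 0.08). The acid phosphatase-like AT4G29270 was at 33.4, 28.3 and 31.5 CPM in Col-0 and 16.9, 18.03 and 17.6 CPM in atm1-1 (−0.83, SE 0.18, edgeR q = 0.08). AT5G38020, an S-adenosylmethionine-dependent methyltransferase, was at 7.74, 13.7 and 9.07 CPM in Col-0 and 2.48, 5.04 and 2.53 CPM in atm1-1 (−1.61, SE 0.35, edgeR q = 0.086).

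None of these 4 was called in every fit without 1 library. UGT72E2 was called only without Col-0 replicate 2 or atm1-1 replicate 3 (edgeR q of 0.287 to 0.499 otherwise), AT5G38020 only without Col-0 replicate 1 or atm1-1 replicate 2 (0.226 to 0.574 otherwise), and AT4G29270 in none of the 6 fits (0.114 to 0.441). The vegetative storage protein genes VSP1 and VSP2, markers of jasmonate response, stood outside the threshold. VSP1 was at 3.87, 7.85 and 6.21 CPM in Col-0 and 2.25, 2.99 and 1.96 CPM in atm1-1 (log2 fold change −1.31, SE 0.30, edgeR q = 0.103), and VSP2 had −1.86 (SE 0.45, edgeR q = 0.142). Of 8 genes in the defence and jasmonate list 5 were tested, none was called, all 5 were negative and the median was −1.31.

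The 7 rises were mostly in genes without a well-known role. AT3G05170, annotated as a phosphoglycerate mutase family protein, was at 0.595, 1.41 and 0.839 CPM in Col-0 and 12.5, 5.59 and 9.65 CPM in atm1-1. Every mutant library was above every wild-type library, and the level was 9.73-fold higher (log2 fold change 3.28, SE 0.43, edgeR q = 0.000297). It was the 1 rise that was called in each fit without 1 library. AT3G02620, of the stearoyl-ACP desaturase family that puts the first double bond into fatty acids, was at 2.46, 1.33 and 1.68 CPM in Col-0 and 5.82, 4.72 and 6.62 CPM in atm1-1 (1.64, SE 0.34, edgeR q = 0.0586).

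AT3G02620 stands in a row with the desaturase genes AT3G02610 and AT3G02630. AT3G02610 was at 1.26 to 1.79 CPM in Col-0 and 3.57 to 4.74 CPM in atm1-1 and was not called (log2 fold change 1.42, SE 0.37, edgeR q = 0.242), while AT3G02630 had 0.26 (SE 0.16, edgeR q = 0.987). Reads of near-identical copies may have been divided between AT3G02610 and AT3G02620 by the counting. The 6 desaturase genes tested had a median of 0.40. AT3G02620 lost its call without Col-0 replicate 2 (edgeR q = 0.319) or 3 (0.318) and without atm1-1 replicate 1 (0.208) or 3 (0.238).

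The other 5 rises had q between 0.08 and 0.0923. AT3G55890, a Yippee family zinc-binding protein, was at 0.372, 1.33 and 0.671 CPM in Col-0 and 2.82, 4.02 and 3.19 CPM in atm1-1 (log2 fold change 2.06, SE 0.44, edgeR q = 0.08). The P450 gene AT5G08250 was at 0.595, 0.549 and 0.420 CPM in Col-0 and 2.25, 1.81 and 2.29 CPM in atm1-1 (2.00, SE 0.45, edgeR q = 0.0923). AT4G34950, a transporter of the major facilitator superfamily, was at 13.4, 9.73 and 9.32 CPM in Col-0 and 19.0, 27.9 and 20.3 CPM in atm1-1 (1.05, SE 0.22, edgeR q = 0.08). In all 3 the groups were clearly apart.

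The jacalin lectin gene AT1G33790 was at 13.99, 10.7 and 11.8 CPM in Col-0 and 23.8, 22.9 and 20.8 CPM in atm1-1 (log2 fold change 0.89, SE 0.20, edgeR q = 0.0915). AT4G13500, an uncharacterized protein, was at 26.5, 29.2 and 27.8 CPM in Col-0 and 47.4, 43.1 and 45.5 CPM in atm1-1 (0.71, SE 0.15, edgeR q = 0.0896), the smallest change called. AT5G08250, AT1G33790 and AT4G13500 were called in none of the 6 fits without 1 library (edgeR q of 0.154 to 0.450, 0.146 to 0.441 and 0.170 to 0.441). AT3G55890 was called only without Col-0 replicate 2, with a log2 fold change of 2.67 (edgeR q of 0.145 to 0.460 otherwise), and AT4G34950 only without Col-0 replicate 1 (0.112 to 0.450 otherwise).

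The study's question concerned the root meristem and sugar, and the lists nearest to it had no call. Of 26 genes of mitosis and DNA replication none was called, 6 were negative and the median was 0.18. In atm1-1 5 were higher with no overlap, against 6.29% of all genes tested. The summed level of the 26 genes was 163 to 186 CPM in Col-0 and 194 to 227 CPM in atm1-1, without overlap. PCNA2, the sliding clamp of DNA replication, was at 26.7, 29.7 and 33.7 CPM in Col-0 and 36.1, 44.3 and 38.2 CPM in atm1-1, with no overlap (log2 fold change 0.40, SE 0.15, edgeR q = 0.786). Of 12 root meristem and root cap regulators, 6 had enough reads. With no overlap 3 of these were higher in atm1-1 and 0 lower, against 6.29% and 6.53% of all genes tested. The 6 genes had a median of 0.07 and ran from −0.23 to 0.86. Among them SHR had 0.26 (SE 0.23, edgeR q = 1) and JKD, which acts with SHR in root patterning, had 0.49 (SE 0.18, edgeR q = 0.779).

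Auxin genes and energy genes were likewise without a call. The median was −0.18 over 13 genes of auxin synthesis and conjugation and −0.12 over 21 genes of auxin transport and signalling. Over 23 genes of sugar starvation and energy signalling the median was 0.13. With no overlap 5 were higher and 1 was lower, against 6.29% and 6.53% of all genes tested. The summed level of the 23 genes was 2791 to 2987 CPM in Col-0 and 3067 to 3378 CPM in atm1-1, without overlap. SEN1, which rises in dark and starved leaves, was at 419, 459 and 434 CPM in Col-0 and 649.6, 472 and 621 CPM in atm1-1, with no overlap (log2 fold change 0.41, SE 0.19, edgeR q = 0.897). ASN1, the starvation-induced asparagine synthetase, had 0.28 (SE 0.18, edgeR q = 1). The 35 photosystem and antenna genes had a median of −0.04 and the 10 Calvin cycle genes −0.06. The summed level of the photosystem list was 242127 to 256251 CPM in Col-0 and 226505 to 266722 CPM in atm1-1, and the groups overlapped.

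The other lists gave 0 calls by edgeR as well. These other lists were flavonoid and anthocyanin genes (11 tested, median −0.36), the circadian clock and PIF genes (16, −0.03), actins (6, −0.01), plasmodesma proteins and callose (9, 0.03), ER body genes (9, −0.09) and genes of iron, phosphate and nitrate (18, 0.05). With no overlap, 5 of the 16 clock and PIF genes were lower and 4 higher, and the list ran from −0.93 to 0.99. Also without overlap, 4 flavonoid genes and 3 ER body genes were lower and 0 higher. Of the iron, phosphate and nitrate genes 3 were lower and 2 higher. Over all genes tested these shares were 6.53% lower and 6.29% higher. Summed levels without overlap were also those of the ER body list (5819 to 5881 CPM in Col-0, 4904 to 5301 CPM in atm1-1) and the flavonoid list (50.5 to 58.3 and 39.1 to 41.2 CPM). The sums of the indole glucosinolate, sulfate, thalianol and marneral, and defence and jasmonate lists were likewise lower in atm1-1 without overlap. With 3 against 3 libraries the smallest p of an exact permutation test is 0.1, so a separated sum is a description only. TT4, chalcone synthase of the flavonoid list, had overlapping groups at 9.08, 15.7 and 13.8 CPM in Col-0 and 9.28, 5.12 and 6.62 CPM in atm1-1 (log2 fold change −0.86, SE 0.33, edgeR q = 0.792). PYK10, the main β-glucosidase of ER bodies, was at 2930.0 to 3248 CPM in Col-0 and 2385 to 2588 CPM in atm1-1, with no overlap (−0.28, SE 0.13, edgeR q = 0.897).

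**Figure D4:**
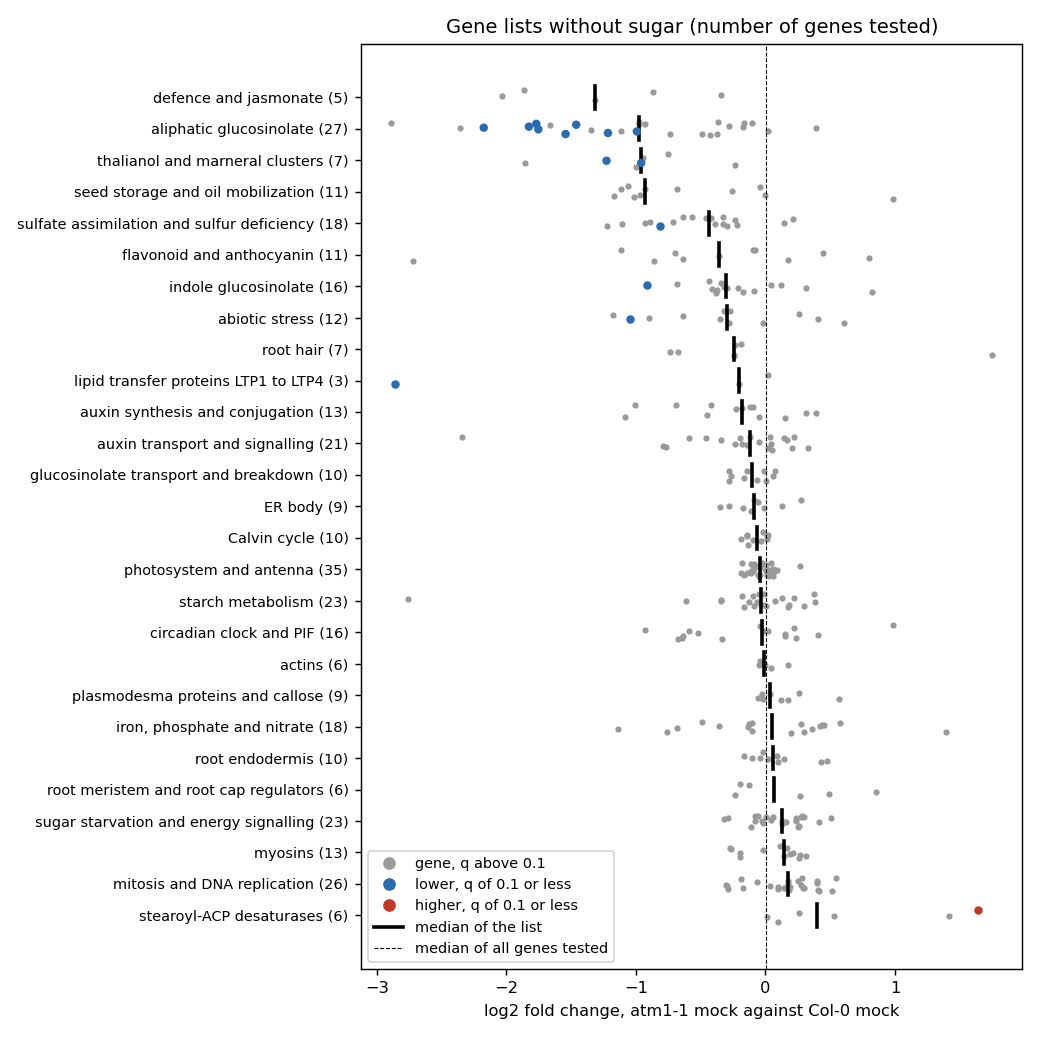
Log2 fold change of atm1-1 mock against Col-0 mock (x axis) for every tested gene of the 27 lists (y axis, number of genes tested in brackets), with called genes in colour and the median of each list as a black bar. The lists with medians below −0.9 are defence and jasmonate, aliphatic glucosinolate, thalianol and marneral, and seed storage and oil mobilization. Most lists have medians near the dashed line for all genes (0.00107).

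Whether these differences were also present on sugar was asked in the libraries grown on glucose and on sucrose, which share none with the mock comparison. On glucose 10 genes differed between the genotypes at q ≤ 0.1 (0.0508% of those tested), 4 higher (0.0203%) and 6 lower (0.0305%). On sucrose 9 differed (0.0457%), 4 higher (0.0203%) and 5 lower (0.0254%). Of the 31 genes 26 had the same direction on glucose and 26 on sucrose, and 6 and 7 were called again in that direction. At an unadjusted p under 0.05 these numbers were 19 and 14, and the groups did not overlap, in the same direction, for 18 and 17. Over all genes tested, 4.89% were lower and 3.83% higher without overlap on glucose, and 6.25% and 5.9% on sucrose. Of the 19679 genes, 1275 on glucose and 910 on sucrose had an unadjusted edgeR p under 0.05 in either direction. On glucose 9947 of all genes tested were negative and 9732 positive, and on sucrose 10249 and 9430. The glucose count of 10 was 190 without atm1-1 glucose replicate 1, 6 without Col-0 glucose replicate 3 and 5 without atm1-1 glucose replicate 3, and the sucrose count of 9 was 4 without Col-0 sucrose replicate 3 and 5 without atm1-1 sucrose replicate 3. The 6 genes called again on glucose were 17 without atm1-1 glucose replicate 1. The 7 called again on sucrose were 4 without Col-0 mock replicate 2 or 3, atm1-1 mock replicate 3, Col-0 sucrose replicate 3 or atm1-1 sucrose replicate 2 or 3. Over the 19679 genes the mock differences had a Pearson r of 0.141 with those on glucose and 0.164 with those on sucrose, given as a description because genes of 1 library are not independent.

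Called in all 3 media were 5 genes, QQS, AT2G04885, AT3G05170, CYP79F1 and AT3G02620. QQS had log2 fold changes of −5.21 (SE 0.48) on glucose and −4.43 (SE 0.45) on sucrose, and AT2G04885 had −5.54 (SE 0.71) and −4.97 (SE 0.62). AT3G05170 was higher by 3.92 (SE 0.45) and 3.87 (SE 0.42) on the log2 scale, and AT3G02620 by 3.06 (SE 0.34) and 2.302 (SE 0.32). CYP79F1 had −1.65 (SE 0.32, edgeR q = 0.0645) and −1.56 (SE 0.31, edgeR q = 0.096). BCAT4 was called again on glucose (−1.69, SE 0.27, edgeR q = 0.00517), AT2G40660 on sucrose (−1.45, SE 0.27, edgeR q = 0.0501) and AT5G08250 on sucrose (2.66, SE 0.43, edgeR q = 0.00612).

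Several genes differed less on sugar. CYP81F4 was at 412 to 500.5 CPM in Col-0 and 403 to 490.1 CPM in atm1-1 on glucose (log2 fold change −0.04, SE 0.16, edgeR q = 0.971), and had −0.04 (SE 0.16, edgeR q = 0.999) on sucrose. CYP705A5 had 0.18 (SE 0.18) and 0.28 (SE 0.18), and LTP3 had 0.02 (SE 0.57) and 0.45 (SE 0.54). RAB18 had −0.70 (SE 0.16, edgeR q = 0.166) on glucose and −0.05 (SE 0.16, edgeR q = 0.999) on sucrose. The aliphatic glucosinolate list had a median of −0.57 on glucose with 2 genes called lower, against 0.0305% of all genes tested. On sucrose the median was −0.29 with 1 called lower, against 0.0254%. Of its 27 genes 22 were negative on glucose and 23 on sucrose. With no overlap 11 were lower and 0 higher on glucose, and 10 lower and 1 higher on sucrose. Over all genes tested 4.89% and 6.25% were lower without overlap. Because the 31 genes were chosen for their difference in the mock libraries, smaller differences elsewhere are no test of a sugar effect.

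An interaction of genotype and medium was fitted gene by gene. It gave 0 genes at q ≤ 0.1 by edgeR for glucose against mock (lowest q = 0.843, with 750 genes under 0.05 before adjustment) and 0 for sucrose against mock (lowest q = 0.648, with 558). DESeq2 called 8 and 5 genes, and limma on the scaled values 0 and 0 with a pseudocount of 1 and 1 and 1 with a pseudocount of 0.1. For sucrose the count was 2 without Col-0 sucrose replicate 1. A difference between media for the genes that fell without sugar was therefore not shown by this test.

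**Figure D5:**
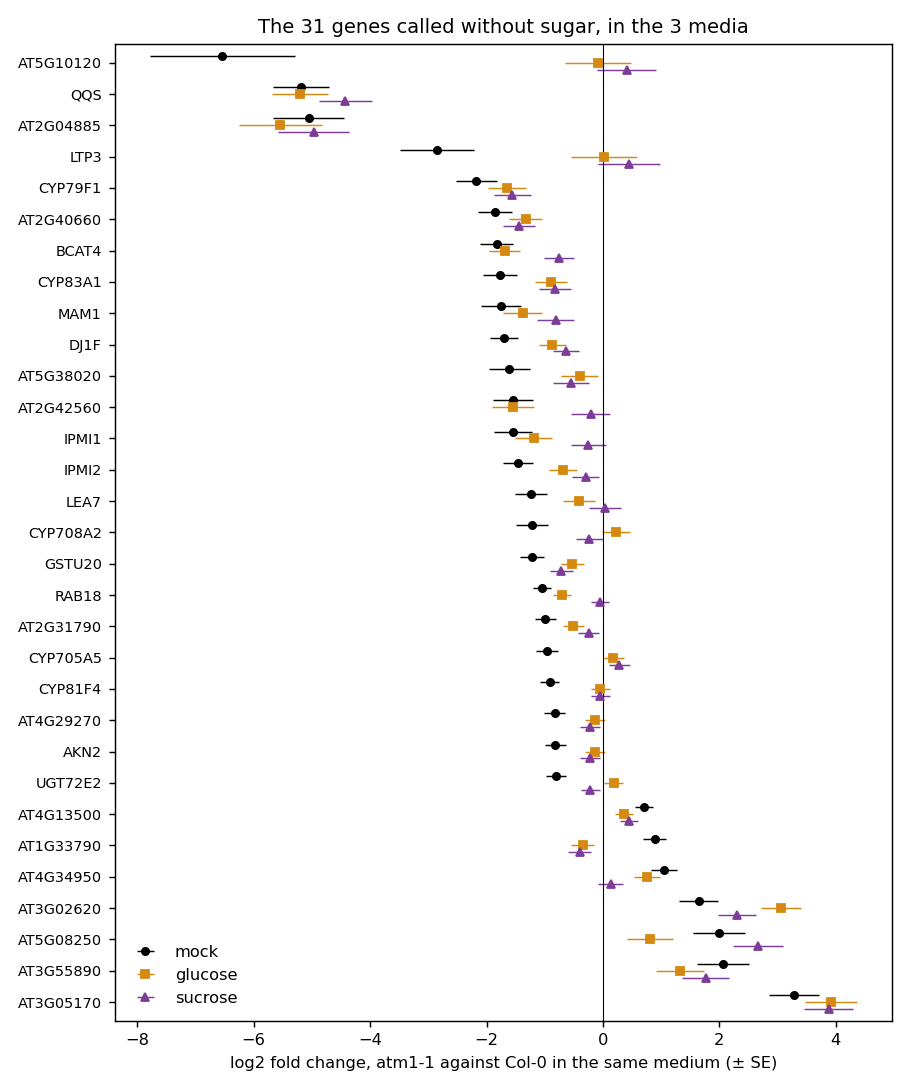
Log2 fold change ± SE of atm1-1 against Col-0 in mock (circles), glucose (squares) and sucrose (triangles) on the x axis for the 31 genes called without sugar (y axis, ordered by the mock value). QQS, AT2G04885, CYP79F1, AT3G02620 and AT3G05170 lie far from 0 in all 3 media, whereas the fitted mock value of AT5G10120 rests on a group with no reads and is no measure of its size.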

How the data were processed

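Whole-seedling RNA of 6 groups, 3 libraries each, was sequenced as QuantSeq 3′ libraries with 50-base reads. Raw counts for each gene, not normalized, were deposited by the authors after mapping to TAIR10. The submitters' processing notes name STAR, HTSeq and edgeR, without roles, and the annotation release and use of strand are not given in the sources used here. A second deposited table holds signal values, the same counts scaled by the authors so that every library sums to 13481521. The paper and the labels name different sequencers.

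Counts were tested with edgeR 4.0.16 (R 4.3.3), with filterByExpr, TMM and quasi-likelihood tests in 1 fit of all 18 libraries and 6 groups. PoissonSeq, the study's tool, was not run. The SE is the size of the log2 fold change divided by the square root of F. limma 3.58.1 ran on log2 of the scaled table (pseudocount 1 or 0.1), DESeq2 1.42.0 on counts. Further alternatives were RLE, library size scaling, no filter, at least 10 counts in every library, only the libraries compared, a replicate block, a threshold of 0.05 and each library left out. The tools were tested on counts simulated from the edgeR fit, with changes put into genes above a count minimum. At q ≤ 0.1 edgeR recovered 23.9% of 1.5-fold, 65.7% of 2-fold and 95.5% of 4-fold changes. False calls were 11 of 134 with edgeR, 34 of 169 with DESeq2 and 8 of 130 with limma. Many changes of 2-fold or less would thus be missed. The floor covers only the counting error of the group without reads.

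Genes named are ATM1, the genes called, called list members, up to 4 further members of a list by level, and the 5 genes on each side of ATM1. Other names were chosen after their values were seen. The 27 lists (415 entries, 401 named so in the reference tables of TAIR10.1) and members were chosen with earlier results of these data known. TAIR10.1 differs from the files' build, so no sequence or coordinate is given and the planned promoter search was not run.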

Additional observations from a re-analysis of the deposited data

How the results depend on the processing

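The count of 31 genes differing without sugar was 107 with no filter on low counts, 84 with DESeq2 and 96 with only the libraries compared, against 19 with at least 10 counts in every library and 16 at a threshold of 0.05, and it was 13 to 20 without 1 library. It was 36 with RLE normalization, 24 when scaled by library size alone and 28 with limma at either pseudocount. The further calls of DESeq2 (54), no filter (77) and only the libraries compared (68) all had the sign they have in the edgeR fit of all libraries. These fits compare the same mock libraries, so the shared sign is no separate support for the further calls. Of the 31 genes 10 kept their call in every fit without 1 mock library and under every other setting that tested them, and 18 kept q ≤ 0.1 under every other normalization, filter, tool, choice of libraries or block that tested them. Library size scaling lost AKN2, AT3G55890, AT5G38020, AT4G13500, AT1G33790, AT5G08250, AT2G42560, LTP3 and CYP708A2. On glucose the count of 10 was 100 with no filter, 4 with at least 10 counts, 39 with DESeq2, 6 with limma at a pseudocount of 0.1, 5 with only the libraries compared and 5 to 190 without 1 library. On sucrose the count of 9 was 97 with no filter, 1 with at least 10 counts, 25 with DESeq2, 5 with library size scaling, limma at 0.1 or a threshold of 0.05, and 4 to 7 without 1 library. The interaction counts of 0 and 0 (glucose, sucrose) were 14 and 21 with no filter, 8 and 5 with DESeq2, 1 and 1 with limma at 0.1, and 0 and 0 to 2 without 1 library. The 6 and 7 genes called again were 30 and 19 with no filter, 2 and 1 with at least 10 counts, 17 and 11 with DESeq2, and 4 to 17 and 4 to 6 without 1 library, and on sucrose 4 with library size scaling and 3 at 0.05. Among the genes recomputed under each alternative, which leave out HSP90.1 and the 5 genes called on sugar alone, the sign changed for 2, neither of them called. MYB28 was −0.27 to 0.14 without 1 library. IIL1 was −0.0090 under library size scaling, −0.0099 under limma at either pseudocount, and −0.028 to 0.047 without 1 library. The cause of these shifts was not tested. Below 1 CPM the depth limits what can be called, with a median SE of 0.82.

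With the replicate number as a block, 21 genes were called without sugar, 7 on glucose and 8 on sucrose, and 0 in either interaction. Deviations of same-numbered Col-0 and atm1-1 mock libraries correlated at −0.03, 0.04 and 0.03, and those of differently numbered libraries at −0.09 to 0.06. With 3 libraries in each group these values cannot decide whether same-numbered libraries were grown or prepared together.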

Other observations

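A further 5 genes differed between the genotypes on sugar but were not called without it. AT1G54870, an NAD(P)-binding Rossmann-fold protein, was at 43.8, 30.99 and 61.9 CPM in the Col-0 mock libraries and 10.8, 18.9 and 23.9 CPM in atm1-1, with no overlap (log2 fold change −1.35, SE 0.32, edgeR q = 0.131), and was called on glucose (−2.57, SE 0.41, edgeR q = 0.00517). The non-coding RNA AT2G01422 had 1.34, 0.785 and 1.09 CPM in Col-0 mock and 0, 0 and 0.245 CPM in atm1-1 mock (edgeR q = 0.386, and 0.0713 on glucose). COR15B, a cold-regulated gene, was at 20.09 to 24.7 CPM in Col-0 mock and 19.3 to 23.4 CPM in atm1-1 mock, and was higher in atm1-1 on glucose (1.12, SE 0.20, edgeR q = 0.0176) and on sucrose (1.01, SE 0.19, edgeR q = 0.0501). The berberine bridge-like gene AT5G44440 had 0.44 (SE 0.27, edgeR q = 0.988) in mock and 1.31 (SE 0.27, edgeR q = 0.0808) on glucose, and AT4G36850, a PQ-loop transmembrane protein, had 0.08 (SE 0.16, edgeR q = 1) in mock and −0.82 (SE 0.17, edgeR q = 0.096) on sucrose.

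AT4G33666 was just outside the threshold, with similar values in all 3 media. It was at 104, 88.3 and 105 CPM in Col-0 mock and 57.0, 64.1 and 62.2 CPM in atm1-1 mock (log2 fold change −0.70, SE 0.16, edgeR q = 0.11), and had −0.75 (SE 0.16, edgeR q = 0.128) on glucose and −0.69 (SE 0.16, edgeR q = 0.357) on sucrose. The groups did not overlap in any medium. Of the 31 genes called without sugar, 7 (22.6%) are on chromosome 3, which carries ATM1 and 19.6% of the genes tested, and 3 of the 7 rises are among them.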
